A study of Mus musculus with 4 samples.

Results

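The nuclear genes of oxidative phosphorylation were taken as every gene symbol in the deposited tables that names a subunit of respiratory complexes I to IV or of the ATP synthase (complex V) by a fixed pattern of names. The pattern was Nduf followed by a, b, c, s or v and a number, Sdha to Sdhd, Uqcr genes, Cyc1, Cox4 to Cox8 followed only by a, b, c or digits, and Atp5 genes. It found 79 symbols among 33850 named gene units: 34 in complex I, 4 in complex II, 9 in complex III, 15 in complex IV and 17 in complex V. Complexes were assigned by name, so Ndufa4, a complex IV subunit, is counted in complex I throughout. All 79 carried an estimate marked OK wherever they had a row, and 78 had a row of their own in all 4 libraries. Sdha was the exception, since 1 table joins it with Lrrc14b. Cox4i1, Ndufb2, Ndufb8 and Atp5o are not among the 79. The last 3 stand in joined loci in every table. No Cox4 gene matched, since the pattern leaves out the letter i of Cox4i1 and Cox4i2, and Cox4i1 had no row of its own.

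The study measured messenger RNA in dermal cells of mouse embryos, sorted by an Axin2-LacZ reporter; Axin2 is a feedback target of canonical Wnt signalling. Cells came from ventral foot skin at E17.5 (embryonic day), a skin that makes sweat glands, and from dorsal back skin at E14.5, a skin that makes hair. Each skin gave 1 library labelled Axin2-LacZ positive and 1 labelled Axin2-LacZ negative, so the 4 groups hold 1 library each, all carry the reporter, and no difference has a replicate check or a p-value. Body site and embryonic age change together between foot and back and cannot be told apart. The sources used here do not give strain, litters or how many embryos were pooled. In bulk RNA of this kind, fewer cells of a type and less RNA per cell cannot be told apart.

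Oxidative phosphorylation is the chain of the inner mitochondrial membrane that passes electrons from NADH (complex I) or succinate (complex II) through ubiquinone to complex III, cytochrome c and complex IV, where oxygen is reduced. Complexes I, III and IV pump protons, and the ATP synthase uses their return to make ATP. Most subunits are encoded in the nucleus, a few core ones in mitochondrial DNA, and complex II, which is also an enzyme of the citric acid cycle, is wholly nuclear. Proliferating embryonic cells often rely on glycolysis as well.

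Values are FPKM, a fragment count divided by transcript length and library size, so levels of different genes within a library are per length. FPKM are printed as deposited, with the authors' lower and upper bounds in parentheses, which cover counting and read assignment within 1 library. Ratios between libraries are log2((FPKM + 1)/(FPKM + 1)) after each library was divided by its median-ratio factor, and ± is the half-width that the bounds of both values give. As deposited, the median over all units lay at -0.25 for positive against negative in the foot, 0.18 in the back, 0.33 for foot against back with the positive label and 0.76 with the negative label, so ratios are reported relative to that shift.

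Axin2 stood at 9.65 FPKM (7.10 to 12.5) in the foot library labelled positive and 12.9 (10.2 to 15.3) in the one labelled negative. As deposited this order goes against the foot labels, with overlapping bounds. After scaling the foot ratio, labelled positive against negative, was -0.14 ± 0.45. Axin2 therefore neither bears out the foot labels nor shows them to be exchanged. In the back it stood at 4.49 (3.89 to 5.09) and 3.13 (2.63 to 3.64). Foot libraries are therefore named by their labels throughout, and with the 2 foot labels exchanged every foot sorting ratio would change its sign, so that ratios alike in the 2 skins would be opposite and opposite ones alike. All 8 fibroblast markers were present in every library, with summed levels of 3070 to 7141 FPKM. Summed mast cell markers reached 265 FPKM in the foot library labelled negative, against 2.17 in the other foot library, 24.6 in the back positive and 83.9 in the back negative library. Among these markers Mcpt4 and Fcer1a were at 0 in all 4 libraries. Summed markers of skeletal muscle were 6.45 to 15.7 FPKM and of brown fat 0.849 to 5.09 FPKM, with Ucp1 and Cidea at 0 in all 4. Immediate early and stress genes summed to 48.2 and 119 FPKM in the foot and 158 and 266 FPKM in the back. These sums hold all 11 listed genes in the foot, but only 9 and 8 of them had a row in the back. The muscle sums rest on 7 or 8 of 9 listed genes. The part of these differences in the results below was not tested, except where a value is given.

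The subunit genes were among the most abundant messengers of these dermal cells. Their median, over members above 0, was 139 FPKM in the foot library labelled positive, 169 in the foot library labelled negative, 82.4 in the back positive and 78.7 in the back negative library. Of the members of at least 1 FPKM, the median one sat at percentile 93.9, 94.3, 92.6 and 93.1 of all units of at least 1 FPKM, in the same order. In each library 48 to 50 members fell in the top 10% of units. Ranks within a library do not depend on the scaling between libraries.

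**Figure D1:**
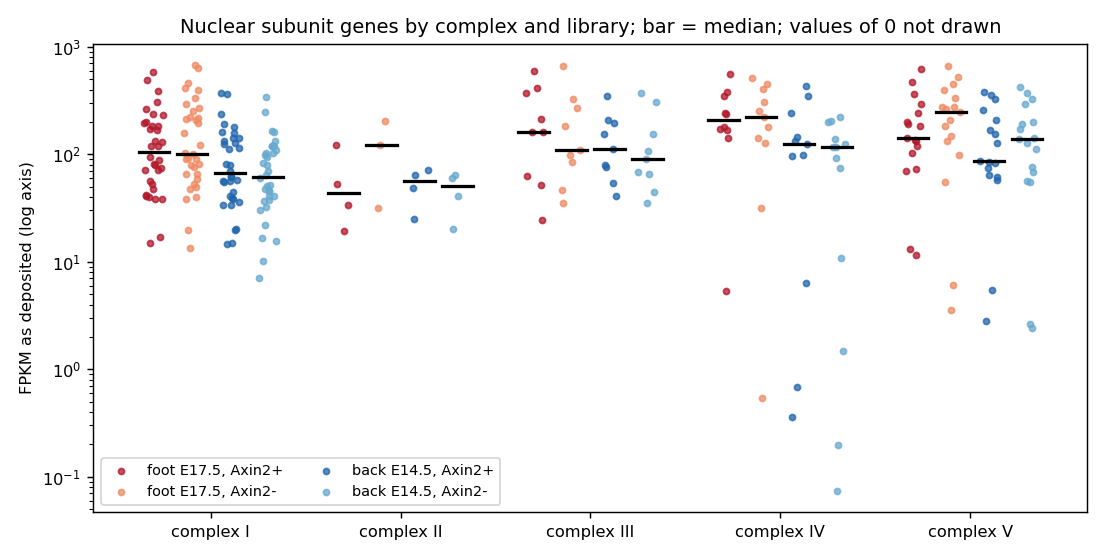
FPKM as deposited of the nuclear subunit genes (y axis, log scale) by complex and library; each point is a gene, the bar is the median of the values above 0, and values of 0 are not drawn. Complex IV has the highest median in the foot library labelled positive (209.5 FPKM) and complex II the lowest (43.2 FPKM), and the low points of complex IV are its tissue-restricted isoforms.

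Levels varied widely between subunits of a complex. In the foot library labelled positive the medians ran from 43.2 FPKM in complex II through 106 in complex I, 141 in complex V and 162 in complex III to 209.5 in complex IV. In the back positive library the same complexes stood at 56.6, 66.5, 86.0, 113 and 125 FPKM. Complex I alone ran from 14.8 to 580.3 FPKM in the foot library labelled positive, a wider range than that of the 5 medians. The highest member was Atp5e (epsilon subunit of the ATP synthase, 625 FPKM) in the foot library labelled positive and Ndufa4 (673 FPKM) in the one labelled negative. In the back it was Cox6b1 (434 FPKM) with the positive label and Atp5b, the catalytic beta subunit (424 FPKM), with the negative label.

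The library values of 28 members lay outside their own bounds in at least 1 library, and those of 6 did so in all 4. Ndufa4, for example, was deposited at 487 FPKM with bounds of 267 to 328. For such genes the bounds were widened to take in the value, which makes their half-widths large. The levels of such members are uncertain, and the sources used here do not say why values and bounds disagree.

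Sorting by the reporter left most subunit genes close to their partner library. In the foot, 73 members had at least 5 FPKM in 1 of the 2 libraries and no value of 0; their median log2 ratio, labelled positive against negative, was 0.06, against -0.00 over 7741 units. The 2 signs were almost even, with 39 members above 0 and 34 below, and 80.8% of the members lay within 1.5-fold, against 62.2% of all units. The sign of this median depends on the scaling: it was -0.20, with 20 above and 53 below, for the FPKM as deposited. Because the subunit genes are abundant, 2051 units of at least 20 FPKM in every library are a nearer comparison for large changes.

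In the foot 4 members were at least 2-fold higher in the library labelled positive, where 9.74% of all units passed in that direction, and 2 were at least 2-fold lower, where 9.08% passed. Of the units of at least 20 FPKM everywhere, 64 are members. Among these 64, 2 were higher (3.1%, against 2.44% of those units) and 1 was lower (1.56%, against 3.66%). Bounds did not overlap for 14 members that were higher (18.2% of all units) and 10 that were lower (16.9%). As deposited these counts were 5 higher and 26 lower.

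In the back the 71 comparable members had a median log2 ratio of -0.02, against 0.00 over 6594 units, with 33 above 0 and 38 below. The median was 0.17, with 53 above and 18 below, as deposited, and -0.09 with upper-quartile factors. Within 1.5-fold lay 78.9% of the members and 82.9% of all units. A single member was at least 2-fold higher (3.59% of all units) and 2 were at least 2-fold lower (2.7%). Among units of at least 20 FPKM in every library the counts were again 1 and 2, of 64 members. These are 1.56% and 3.1%, against 1.37% and 2.10% of those units. Bounds were apart for 17 members that were higher (20.9%) and 13 that were lower (16.5%), shares close to those of all units; as deposited the split was 26 to 10.

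The foot minus back difference of the 2 sorting ratios had a median of 0.01 over 72 members, with 36 above 0 and 36 below. It was 2-fold or more in 5 members above 0 (10.9% of 8014 units) and in 4 below (12.1%). Among units of at least 20 FPKM in every library it was so in 4 of 64 members above (6.25%, against 5.12% of those units) and 3 below (4.69%, against 5.31%). Its size exceeded its half-width in 20 members above 0 (22.8% of all units) and 18 below (24.3%). As deposited the difference had a median of -0.42 and the 2-fold counts were 3 and 11.

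The median subunit gene stood modestly higher in foot than in back skin, relative to all genes, with either label. With the positive label the median log2 ratio of 72 members was 0.25, against 0.05 over 7513 units, and with the negative label it was 0.21 over 72 members, against 0.07 over 7547 units. Among the 2051 units of at least 20 FPKM in every library the medians were 0.11 and 0.10, and the 64 members among them stood at 0.25 and 0.19. In both comparisons 48 members (66.7%) were higher in the foot and 24 lower. Of all units, 52.5% were higher in the foot with the positive label and 53.9% with the negative label. The medians stayed above 0 under the 4 scalings run, from 0.11 to 0.54 with the positive label and from 0.10 to 0.95 with the negative label, the upper ends being the FPKM as deposited. Of 71 members comparable with both labels, 39 (54.9%) were higher in the foot with both, against 37.4% of 6757 units. These 2 comparisons share no library, but they are not independent checks. Both set the same 2 skins and ages against each other, with scaling factors taken jointly from all 4 libraries. Other lists moved between the skins as well. Of 9 proliferation genes 8 were below 0 in foot against back with the positive label and 9 with the negative label (7 with each as deposited), among them the replication helicase gene Mcm2 (-1.45 ± 0.28 and -1.60 ± 0.21). Summed markers in the order foot positive, foot negative, back positive, back negative were 0, 0, 3.76 and 13.7 FPKM for erythroid cells, 0.788, 4.49, 4.67 and 15.7 for leukocytes and 7.70, 0.184, 33.4 and 13.8 for keratinocytes. The erythroid sums rest on 3 of 7 listed genes, and the keratinocyte sums on 8 genes in the foot and 6 in the back. The part of these lists in the foot against back ratios was not tested.

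Few of these differences were large. With the positive label 2 members were at least 2-fold higher in the foot (13.6% of all units) and 2 at least 2-fold lower (14%). With the negative label 3 were higher (12.7%) and 7 lower (12.1%). Among units of at least 20 FPKM in every library, of which 64 are members, 1 member was higher and 1 lower with the positive label (1.56% each, against 5.61% and 6.09% of those units). With the negative label 3 were higher (4.69%, against 6.29%) and 6 lower (9.38%, against 6.73%). Bounds were apart for 25 members that were higher and 14 that were lower with the positive label, where all units gave 25.1% and 26%. With the negative label they were apart for 25 that were higher and 17 that were lower, where all units gave 28.9% and 28%. As deposited the splits were 39 to 7 and 59 to 6. With both labels at once, 16 members were higher with bounds apart (22.5%, against 14.6% of all units) and 7 were lower (9.86%, against 17.2%).

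**Figure D2:**
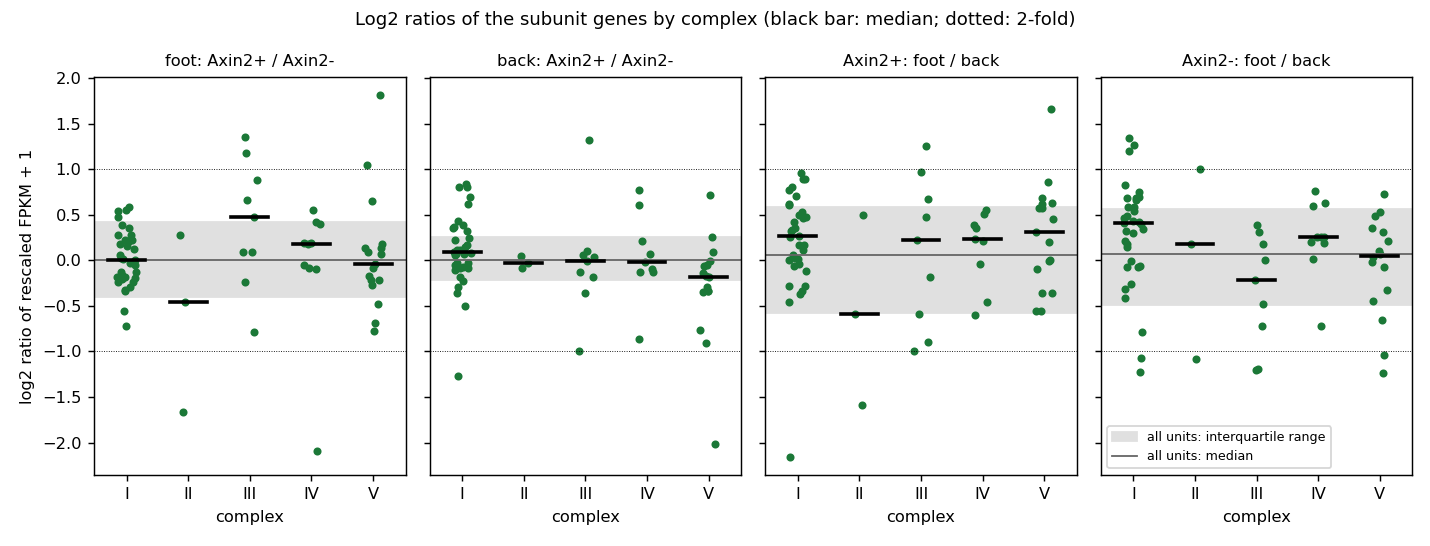
Log2 ratios of rescaled FPKM + 1 (y axis) of the subunit genes by complex in the 4 comparisons; points are genes, black bars medians of a complex, the grey line and band the median and interquartile range of all units, and dotted lines 2-fold. Most points lie inside the band and within 2-fold; complex I has its median at 0.27 and 0.41 in foot against back, while Ndufa12 (-2.16) and Atp5f1 (-2.02 in the back sort) stand far below; as deposited the complex I medians were 0.56 and 1.15.

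Other short transcripts also leaned to the foot. The members have a median coding transcript of 648 bases, 61 of 78 at most 1000 bases, against a median of 1519 bases for units of at least 5 FPKM in every library. Other units of at most 1000 bases had foot against back medians of 0.12 (positive label) and 0.15 (negative label), and those over 1000 bases had medians of -0.04 and 0.03. The members of at most 1000 bases stood at 0.27 and 0.30, and those over 1000 bases, 16 and 15 genes, at 0.00 and -0.08. With scaling factors taken from short units alone, the medians of the members were 0.11 and 0.10. The part of transcript length in the foot excess was not tested beyond these values.

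**Figure D3:**
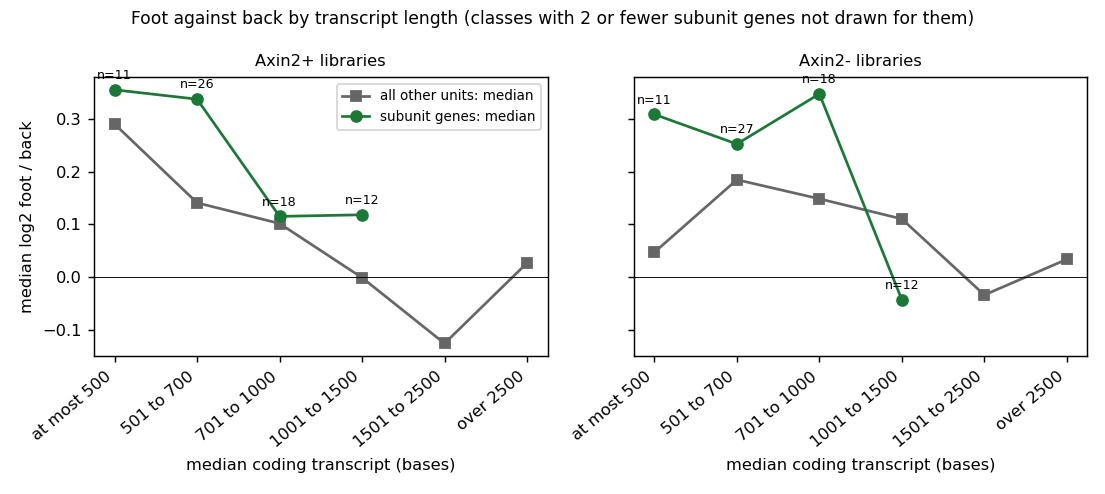
Median log2 ratio of foot against back (y axis) by class of median coding transcript length in bases (x axis), for all other units (grey squares) and the subunit genes (green circles, with their number), positive label at left and negative label at right. Other units of at most 1000 bases had medians of 0.12 and 0.15 and longer ones -0.04 and 0.03, the subunit genes of at most 700 bases lie above the other units of their class, and in their longest class drawn they do so only with the positive label.

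Complex I, NADH dehydrogenase, leaned to the foot with both labels. Of its 34 members by name, which include Ndufa4, 25 were higher in the foot with the positive label, against 52.5% of all units. With the negative label 24 were higher, against 53.9% of all units. The medians of complex I were 0.27 and 0.41. Under the 4 scalings run these medians ran from 0.13 to 0.56 and from 0.29 to 1.15. Ndufb11, an X-linked accessory subunit of the membrane arm, stood at 184, 195, 79.9 and 45.5 FPKM in the order foot positive, foot negative, back positive, back negative, the order used from here on. Both foot values exceed both back values, by 0.89 ± 0.29 and 1.34 ± 0.29 on the log2 scale, and the back sort was 0.62 ± 0.28. The FPKM of Ndufb11 lies outside its own bounds in all 4 libraries, so its level is uncertain. Ndufa5, an accessory subunit of the arm that holds the ubiquinone site, had 391, 337, 163 and 134 FPKM, with foot against back ratios of 0.96 ± 0.23 and 0.58 ± 0.18. Ndufa3, the complex I member with the highest mean level, stood at 580.3, 637, 368 and 343 FPKM, ahead in the foot as deposited but by only 0.36 ± 0.70 and 0.15 ± 0.17 after scaling.

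Ndufa12, an accessory subunit of complex I near its NADH-oxidising arm, ran the other way. It stood at 38.02, 49.7, 141 and 70.4 FPKM, so both back values exceed both foot values, and the back positive library is the highest of the 4. The foot against back ratios were -2.16 ± 0.38 and -1.22 ± 0.41, the lowest of complex I in both comparisons, and the back sort gave 0.81 ± 0.38. In the back negative library its FPKM lies outside its bounds (42.5 to 53.2).

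Ndufs4, an accessory subunit whose loss destabilises complex I, stood at 47.9, 65.04, 38.2 and 82.3 FPKM. The back negative library alone is high, which makes the back sort -1.27 ± 0.13 and the negative-label site ratio -1.07 ± 0.14, while the foot sort (-0.18 ± 0.20) and the positive-label site ratio (0.02 ± 0.19) stay near 0. Ndufs3 and Ndufa6 show the opposite in the same library. Ndufs3, a core subunit of the ubiquinone-reducing part, stood at 78.9, 90.7, 44.2 and 22.01 FPKM, and Ndufa6, an accessory subunit, at 264, 399, 190.3 and 103 FPKM, each lowest in the back negative library, with negative-label site ratios of 1.27 ± 0.22 and 1.20 ± 0.14. Ndufc1, a small membrane-arm subunit, stood at 231, 456, 237 and 161 FPKM; it was lower with the positive label in the foot (-0.72 ± 0.36) and higher in the back (0.36 ± 0.20).

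The nuclear core subunits of complex I, which carry the flavin and the iron-sulphur clusters, did not move as a block. With the positive label Ndufs8 (0.48 ± 0.19), Ndufs3 (0.53 ± 0.47) and Ndufv2 (0.27 ± 0.23) were above 0 in foot against back. Ndufs7 (0.06 ± 0.27) and Ndufv1 (0.00 ± 0.27) lay near 0, and Ndufs1, the largest core subunit, stood at -0.28 ± 0.24. Ndufs1 was also the least abundant member of complex I in both foot libraries, at 14.8, 13.5, 14.8 and 10.2 FPKM.

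Complex II, succinate dehydrogenase, was the least abundant complex in the foot positive and both back libraries by its median, and its members went separate ways. Sdhb, the iron-sulphur subunit, stood at 123, 121, 70.7 and 63.6 FPKM and was above the back in the foot by 0.49 ± 0.15 and 0.18 ± 0.13. Sdhc, a membrane anchor that binds ubiquinone, stood at 52.8, 204, 64.7 and 60.5 FPKM. Its value in the foot library labelled negative is the single high one, which sets the foot sort at -1.67 ± 0.33 and the negative-label site ratio at 1.0 ± 0.21, whereas the back sort was -0.09 ± 0.14. Sdhd, the other anchor, stood at 19.1, 31.8, 48.4 and 41.1 FPKM and was lower in the foot by -1.58 ± 0.37 and -1.08 ± 0.23. Sdha, the flavoprotein, had 33.6 FPKM in the foot library labelled positive and 24.9 and 20.2 in the back libraries, with no ratio against the foot library labelled negative.

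The same foot library held high single values for 2 other mitochondrial genes. Suclg1, a subunit of succinyl-CoA ligase, which makes the succinate that complex II oxidises, stood at 48.4, 203, 50.3 and 40.9 FPKM, with a foot sort ratio of -1.79 ± 0.32. Timm44, of the matrix import motor, stood at 15.3, 42.8, 14.3 and 11.6 FPKM, with a ratio of -1.17 ± 0.54. This library is also the one with 265 FPKM of mast cell markers, and the part of those cells in these values was not tested.

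Complex III, ubiquinol-cytochrome c reductase, had the highest median of the 5 complexes in the foot sort. Of its 9 members 7 were above 0 in the foot sort, with a median of 0.47 (0.21 as deposited, with 5 above and 4 below), and 5 of these had bounds apart, where 18.2% of all units did in that direction. These directions follow the foot labels, which Axin2 does not bear out. In the back sort the median was -0.00, with 4 above and 5 below. Uqcrq, a small subunit beside cytochrome b, stood at 212, 98.2, 196 and 68.5 FPKM: the library labelled positive is the higher one in both skins. Its sorting ratios were 1.36 ± 0.30 in the foot and 1.32 ± 0.20 in the back, it was the only member at least 2-fold higher in both by the labels, and its site ratios were -0.18 and -0.22.

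Uqcrb, another small subunit that helps bind ubiquinone, had opposite sorting ratios in the 2 skins. It stood at 411, 267, 209.6 and 369 FPKM, so the label positive is high in the foot and low in the back. The sorting ratios were 0.88 ± 0.17 in the foot and -1.0 ± 0.12 in the back, a difference of 1.88 ± 0.21. Uqcrc2, a core subunit, stood at 161, 84.6, 54.3 and 44.5 FPKM, with the foot library labelled positive alone high and outside its bounds (101 to 136); the foot sort was 1.18 ± 0.35 and the positive-label site ratio 1.26 ± 0.34. Its partner Uqcrc1 ran the other way, at 52.1, 108, 79.9 and 90.7 FPKM, with the same 2 ratios at -0.78 ± 0.19 and -0.90 ± 0.18.

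The electron carriers of complex III stood lower in the foot. The Rieske protein gene Uqcrfs1 stood at 62.6, 46.8, 76.8 and 64.9 FPKM, with site ratios of -0.59 ± 0.20 and -1.19 ± 0.21, and cytochrome c1 (Cyc1) at 24.6, 35.1, 40.9 and 35.1 FPKM, with -1.0 ± 0.35 and -0.72 ± 0.21. As deposited Uqcrfs1 was lower in the foot too, while Cyc1 with the negative label was level, at 35.1 FPKM in each skin. The hinge protein gene Uqcrh, the highest member of the complex on average, stood at 591, 665, 345 and 304 FPKM, outside its bounds in all 4 libraries, and its site ratios were 0.48 ± 0.33 and 0.38 ± 0.27 with bounds that overlap. Uqcr10, a small subunit, was above the back in the foot by 0.97 ± 0.18 and 0.31 ± 0.15, at 375, 323, 155 and 155 FPKM.

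Complex IV, cytochrome c oxidase, was expressed mainly as the ubiquitous isoforms in the pairs of Cox6a, Cox6b, Cox7a and Cox8, apart from Cox8a in the back positive library. Cox4i1 had no value to set beside Cox4i2. The 9 comparable members of the complex with the positive label had a foot against back median of 0.23. The 10 with the negative label had one of 0.25, with 6 and 9 members above 0. Cox6c, the highest member on average, stood at 561, 511, 349 and 201 FPKM and was the only gene of the complex with bounds apart in all 4 comparisons, at 0.39 ± 0.14, 0.61 ± 0.10, 0.38 ± 0.13 and 0.60 ± 0.12 for the foot sort, the back sort and the 2 site comparisons. The direction of its foot sort was kept as deposited, at 0.13. Cox5a, a subunit on the matrix side of the enzyme, stood at 172, 140.3, 144 and 139 FPKM, outside its bounds everywhere.

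Isoform choice set the low end of complex IV. Cox6a2, Cox7a1 and Cox8b, the isoforms of heart and skeletal muscle, and Cox7b2 and Cox8c, known from testis, were at or near 0. Cox8b and Cox8c were listed at 0 in all 4 libraries, Cox6a2 was listed at 0 in 3 with 0.0742 FPKM (0 to 0.371) in the back negative library, and Cox7b2 had 0.687 and 0.199 FPKM in the back alone. Cox7a1 was listed at 0 in the foot library labelled positive and stood at 0.540, 0.362 and 1.47 FPKM in the other 3. Their ubiquitous partners Cox6a1 (382, 404, 242 and 202 FPKM), Cox7a2 (169, 178, 96.4 and 92.7 FPKM) and Cox8a stood at 92.7 FPKM or more, with 1 exception.

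The exception is Cox8a in the back positive library, where it is listed at 0 (upper bound 0.170 FPKM) against 239, 250.1 and 125 FPKM in the other libraries. Cox8a is the ubiquitous form of an obligatory subunit, the other values lie outside their own bounds, and a failed estimate cannot be told apart from absence here; no ratio was formed. Cox6b2, known as a testis isoform, was the only such isoform above 5 FPKM in every library, at 5.32, 31.4, 6.28 and 10.7 FPKM, with the foot library labelled negative alone high. That high value lies outside its own bounds (16.97 to 26.6), so its size is uncertain. Its foot sort of -2.09 ± 1.04 and back sort of -0.87 ± 0.45 both put the negative label higher, whereas its ubiquitous partner Cox6b1 stood at 352, 446, 434 and 222 FPKM.

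**Figure D4:**
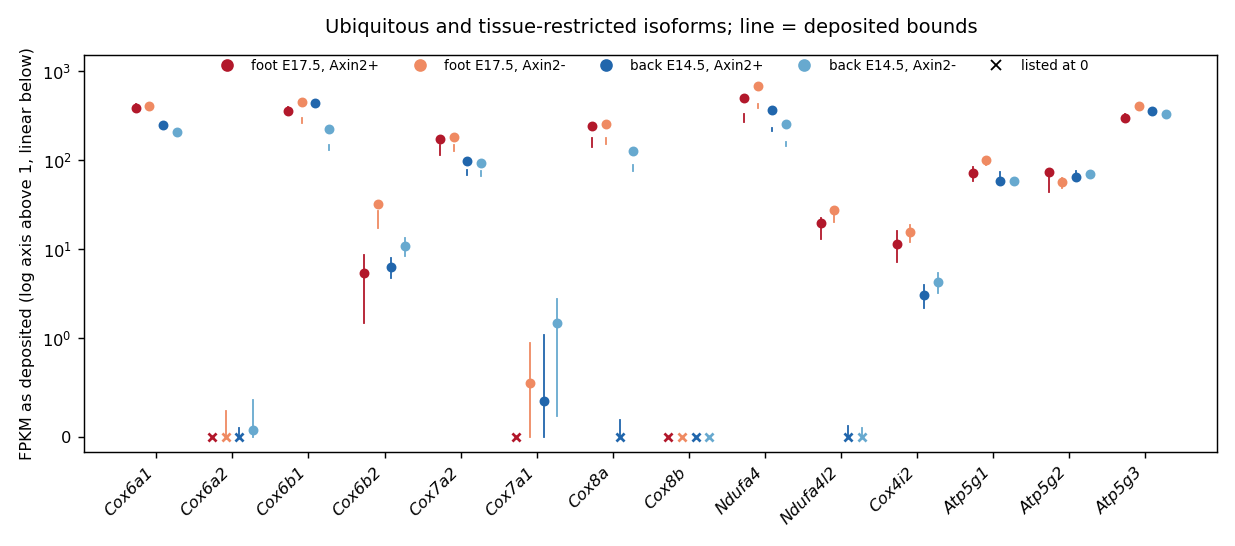
FPKM as deposited (y axis, linear below 1 and log above) of isoform sets in the 4 libraries; points are values, lines the authors' bounds, crosses values listed at 0, and a point off its line lies outside its own bounds. The muscle isoforms Cox6a2, Cox7a1 and Cox8b stay at or near 0, Cox8a is listed at 0 in the back positive library alone, and Ndufa4l2 and Cox4i2 are above their back values in both foot libraries.

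The promoters of 2 isoform pairs are shown because 1 isoform of each is abundant and the other is at or near 0. They are the 250 bases before the annotated start in RefSeq (GRCm38.p6), written 5′ to 3′ on the gene's strand with each CG in capitals; the genome of the deposited tables is mm9, so these coordinates are RefSeq's own. The promoter of Cox7a2 (chr9:79759854-79760103, minus strand) holds 14 CG and that of Cox7a1 (chr7:30183921-30184170, plus strand) holds 4. The promoter of Cox8a (chr19:7217617-7217866, minus strand) holds 11 and that of Cox8b (chr7:140900447-140900696, minus strand) holds 1.
Cox7a2: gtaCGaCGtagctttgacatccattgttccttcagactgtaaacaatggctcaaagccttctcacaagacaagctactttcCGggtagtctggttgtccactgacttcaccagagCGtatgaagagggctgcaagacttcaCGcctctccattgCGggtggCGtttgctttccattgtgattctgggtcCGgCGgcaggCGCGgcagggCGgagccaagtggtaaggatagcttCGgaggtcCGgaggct
Cox7a1: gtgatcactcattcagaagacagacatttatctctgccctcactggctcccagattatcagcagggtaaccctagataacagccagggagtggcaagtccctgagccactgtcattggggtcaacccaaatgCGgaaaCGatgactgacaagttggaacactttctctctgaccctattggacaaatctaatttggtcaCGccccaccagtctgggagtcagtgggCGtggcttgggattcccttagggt
Cox8a: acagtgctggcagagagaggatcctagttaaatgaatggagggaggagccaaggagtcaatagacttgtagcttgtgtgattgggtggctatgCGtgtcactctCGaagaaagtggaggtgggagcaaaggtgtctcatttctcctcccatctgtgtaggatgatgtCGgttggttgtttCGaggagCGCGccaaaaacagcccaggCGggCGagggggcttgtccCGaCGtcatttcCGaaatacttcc
Cox8b: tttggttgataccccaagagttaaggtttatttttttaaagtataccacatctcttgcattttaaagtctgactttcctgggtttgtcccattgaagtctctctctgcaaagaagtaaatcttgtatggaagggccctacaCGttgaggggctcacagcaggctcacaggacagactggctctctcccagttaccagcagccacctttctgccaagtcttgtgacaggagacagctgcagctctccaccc
In both pairs the expressed isoform has the promoter richer in CG. Over windows from 250 bases before the start to 50 after it, the median was 19 CG for the 71 promoters of 65 members with an entry, 22 for promoters of units of at least 5 FPKM in every library, and 7 for all 32851 promoters. The other 14 members had no entry.

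Short motifs known from promoters of respiratory genes were then searched on both strands of the same windows. GCGCATGC, the core of the site of NRF1 (nuclear respiratory factor 1), was found in 10 member promoters (14.1%), against 6.41% of the promoters of expressed units and 2.71% of all. AAGATGGC, the core of the YY1 site, was found in 11 (15.5%), against 5.74% and 2.75%. Promoters rather than genes are counted, and each promoter of Atp5sl, whose product is not a core subunit, is among the 11. CCGGAAGT, a core of ETS family sites such as that of GABP, was found in 5 (7.04%), against 10% of expressed and 3.89% of all promoters, and TATAAA in 8 (11.3%), against 7.01% and 13.6%. These are letter matches, not measured binding. NRF1 itself stood at 8.72, 9.12, 7.71 and 6.37 FPKM, Yy1 at 21.4, 24.5, 20.9 and 16.6 FPKM.

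A stretch of 60 bases around the NRF1 letters, with those letters (either strand) in capitals, is shown for 1 member of each complex that holds them wholly within the 250 bases before the start. Uqcr11 and Uqcrc1 of complex III hold them elsewhere in the searched window. They belong to Ndufa11 (chr17:56717676-56717735, plus strand), Sdhb (chr4:140961191-140961250, plus strand), Cox6a1 (chr5:115349087-115349146, minus strand) and Atp5g2 (chr15:102671056-102671115, minus strand), all in GRCm38.p6.
Ndufa11: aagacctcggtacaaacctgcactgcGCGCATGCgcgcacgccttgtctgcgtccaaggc
Sdhb: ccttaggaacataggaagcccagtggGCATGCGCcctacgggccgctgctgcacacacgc
Cox6a1: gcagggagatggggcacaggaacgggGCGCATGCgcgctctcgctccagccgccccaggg
Atp5g2: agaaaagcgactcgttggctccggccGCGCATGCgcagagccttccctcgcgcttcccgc
The 4 genes do not share a pattern of expression. Cox6a1 and Sdhb were higher in the foot with both labels, Ndufa11 stood at 16.9, 19.9, 14.98 and 7.05 FPKM with its lowest value in the back negative library, and Atp5g2 was lower in the foot with the negative label (-1.04 ± 0.21).

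The ATP synthase, complex V, leaned to the negative label in the back. Of 16 comparable members 13 were below 0 in the back sort and 7 had bounds apart below, where 16.5% of all units did, with a median of -0.18; as deposited the median was 0.00, with 8 above and 8 below. The genes of the catalytic head were all below 0: Atp5b -0.34 ± 0.09, Atp5a1 (alpha) -0.34 ± 0.09, Atp5c1 (gamma) -0.14 ± 0.08, Atp5d (delta) -0.77 ± 0.12 and Atp5e -0.34 ± 0.10. In the foot sort the complex had a median of -0.04, with 8 above and 9 below.

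Atp5f1, the b subunit of the peripheral stalk, was the member of the complex with the largest sorting ratio in the back. It stood at 184, 209.5, 82.4 and 295 FPKM, high in the back negative library (285 to 310.4) and low in the back positive library (78.9 to 86.9), with the 2 foot libraries between and alike. The back sort was -2.02 ± 0.09, the site ratios were 0.86 ± 0.14 and -1.24 ± 0.10, and the difference of the sorting ratios was 2.09 ± 0.17. Atp5h (subunit d) and Atp5j (F6), its neighbours in the stalk, did not follow: Atp5h stood at 141, 272, 169.6 and 139.8 FPKM and Atp5j at 470.4, 528, 257 and 189 FPKM. Atp5j2, the f subunit of the membrane part, was lower with the positive label in both skins, at 119, 246, 84.4 and 140.2 FPKM, with ratios of -0.78 ± 0.26 and -0.91 ± 0.15.

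The proton-carrying c ring is made from 3 genes whose mature proteins are the same. Atp5g3 was the main source by level in every library, at 296, 400.4, 355 and 326 FPKM. Atp5g1 stood at 70.4, 97.9, 57.2 and 56.9 FPKM and Atp5g2 at 73.6, 55.5, 63.9 and 69.1 FPKM. After scaling Atp5g3 was lower in the foot by -0.56 ± 0.13 and -0.45 ± 0.10, Atp5g1 lay at 0.00 ± 0.34 and 0.04 ± 0.19, and Atp5g2 stood at -0.09 ± 0.41 with the positive and -1.04 ± 0.21 with the negative label. As deposited, Atp5g3 is lower in the foot with the positive label alone.

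Atp5e, the member of complex V with the highest mean, stood at 625, 659, 329 and 368 FPKM, above the back in the foot as deposited with both labels and by 0.62 ± 0.15 and 0.10 ± 0.11 after scaling. The names Atp5s and Atp5sl match the pattern, but their products are now known as DMAC2L and DMAC2 and are not core subunits; Atp5l2 is named a pseudogene by RefSeq. Atp5s stood at 11.5, 6.02, 5.51 and 2.63 FPKM, higher with the positive label in both skins (1.04 ± 0.47 and 0.72 ± 0.29), and Atp5sl at 13.2, 3.56, 2.79 and 2.40 FPKM, with a foot sort of 1.81 ± 1.66 whose bounds overlap. Without these 3 names the foot sort had 2 members at least 2-fold higher in place of 4, and the positive-label site comparison 1 in place of 2.

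Partner genes outside the name pattern also differed between the skins. Ndufa4l2, a hypoxia-inducible relative of the complex IV subunit Ndufa4, stood at 19.5 (12.8 to 22.4) and 27.5 (19.9 to 27.4) FPKM in the foot and was listed at 0 in both back libraries, with upper bounds of 0.108 and 0.0878. Cox4i2, an isoform of subunit IV known from lung and from low oxygen, stood at 11.4, 15.3, 2.996 and 4.27 FPKM, with site ratios of 1.38 ± 0.61 and 0.98 ± 0.43. Of the listed endothelial and pericyte markers, Rgs5 stood at 7.53, 4.74, 0.283 and 0.199 FPKM, with a positive-label site ratio of 2.58 ± 0.27. With that label Abcc9 was also higher in the foot (1.18 ± 0.31), while Kcnj8 was lower (-1.10 ± 0.41). Pecam1, Cdh5 and Emcn were listed at 0 in both foot libraries and above 0 in both back libraries. The part of such cells in the Ndufa4l2 and Cox4i2 values was not tested. Ndufa4 itself stood at 487, 673, 364 and 249 FPKM, outside its bounds everywhere, and its site ratios of 0.12 ± 0.59 and 0.69 ± 0.58 have overlapping bounds. Atpif1, the inhibitor of the ATP synthase, was also above the back in the foot, at 682, 621, 306 and 240.0 FPKM (0.86 ± 0.13 and 0.63 ± 0.11), as was Cox7a2l, a supercomplex assembly factor (0.94 ± 0.20 and 0.40 ± 0.16). Cytochrome c (Cycs) stood at 16.04, 23.7, 18.4 and 13.8 FPKM.

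After scaling, other genes of mitochondrial energy metabolism did not share the foot excess. Subunit genes over 1000 bases, 16 and 15 genes, did not show it either, with medians of 0.00 and -0.08 for the positive and negative label. The other lists, glycolysis included, were not matched to the subunit genes for transcript length, and the part of length in these contrasts was not tested. Of the 16 comparable genes of the citric acid cycle and pyruvate dehydrogenase, 12 were below 0 in foot against back with the positive label (median -0.32) and 11 with the negative label (median -0.23); as deposited the medians were -0.03 and 0.51. Citrate synthase (Cs), the entry enzyme of the cycle, stood at 9.65, 15.8, 42.3 and 17.2 FPKM, with the back positive library alone high and site ratios of -2.31 ± 0.29 and -0.82 ± 0.19. Idh2 and Mdh2, the 2 of the list with the highest mean over the libraries, stood at 138, 154, 94.8 and 98.5 FPKM and at 187, 168, 125 and 129 FPKM. Carriers and import genes had site medians of -0.35 and -0.20 over 16 genes, -0.06 and 0.52 as deposited. The mitochondrial chaperonin pair had the lowest ratios of the list with the negative label, and Tomm40, an import channel gene at 0.747, 2.66, 7.41 and 6.09 FPKM, the lowest with the positive label (-2.47 ± 0.91). Hspd1 stood at 11.2, 17.3, 39.8 and 94.97 FPKM and Hspe1 at 65.98, 48.7, 116 and 98.7 FPKM, with site ratios of -2.03 ± 0.27 and -3.11 ± 0.19 for Hspd1 and -1.10 ± 0.24 and -1.74 ± 0.19 for Hspe1. The ADP/ATP carrier Slc25a4 stood at 151, 219.5, 202 and 179.5 FPKM.

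Assembly factors were scarce beside the subunits they build. Of 40 listed, 27 had rows in the tables and 16 were comparable in each site comparison, with medians of -0.30 and -0.22 (-0.04 and 0.48 as deposited). Ndufaf2 and Tmem70, the 2 highest of those above 0 in every library, stood at 24.6, 31, 28.7 and 21.8 FPKM and at 17.05, 17.4, 15.6 and 12.3 FPKM. Ndufaf3, a complex I assembly factor, stood at 54.6 and 8.74 FPKM in the foot and is listed at 0 in both back libraries. Surf1, an assembly factor of complex IV, is listed at 0 in all 4, with upper bounds of 9.91, 5.69, 2.01 and 2.31 FPKM. In the back negative library its lower bound (0.0248) is above that 0, and a failed estimate cannot be told apart from absence. Regulators of mitochondrial biogenesis had site medians of 0.06 over 11 genes and 0.01 over 8 (0.33 and 0.72 as deposited). Tfam, which packages and transcribes mitochondrial DNA, stood at 19.8, 41.04, 12.6 and 21.4 FPKM, higher with the negative label in both skins (-0.76 ± 0.62 and -0.90 ± 0.32). Ppargc1a, the coactivator that drives mitochondrial biogenesis in muscle and brown fat, did not exceed 0.981 FPKM in any library.

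After scaling, glycolytic genes lay on the other side of 0 from the subunit genes. Of 11 comparable glycolytic genes 10 were below 0 in foot against back with each label, 9 of them with bounds apart each time (26% and 28% of all units were lower with bounds apart), and the medians were -0.76 and -0.63. As deposited the positive-label median was still below 0 (-0.47, 10 below) but the negative-label one was 0.11, with 6 above and 5 below. Ldha, which turns pyruvate into lactate, stood at 109, 157, 259 and 235 FPKM, and Pkm2, the pyruvate kinase gene, at 61.8, 69.9, 129 and 120.0 FPKM; both back values exceed both foot values for each, by -1.54 ± 0.15 and -1.32 ± 0.09 for Ldha and -1.34 ± 0.13 and -1.51 ± 0.10 for Pkm2. Pfkl, a phosphofructokinase, stood at 1.62, 2.69, 10.8 and 14.1 FPKM. Hk2 (hexokinase 2) was the one gene above 0 with the positive label, at 5.78, 0.666, 1.85 and 1.63 FPKM and with overlapping bounds. In the back sort all 10 comparable genes were below 0, with a median of -0.27 (-0.09 as deposited, with 4 above and 6 below).

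**Figure D5:**
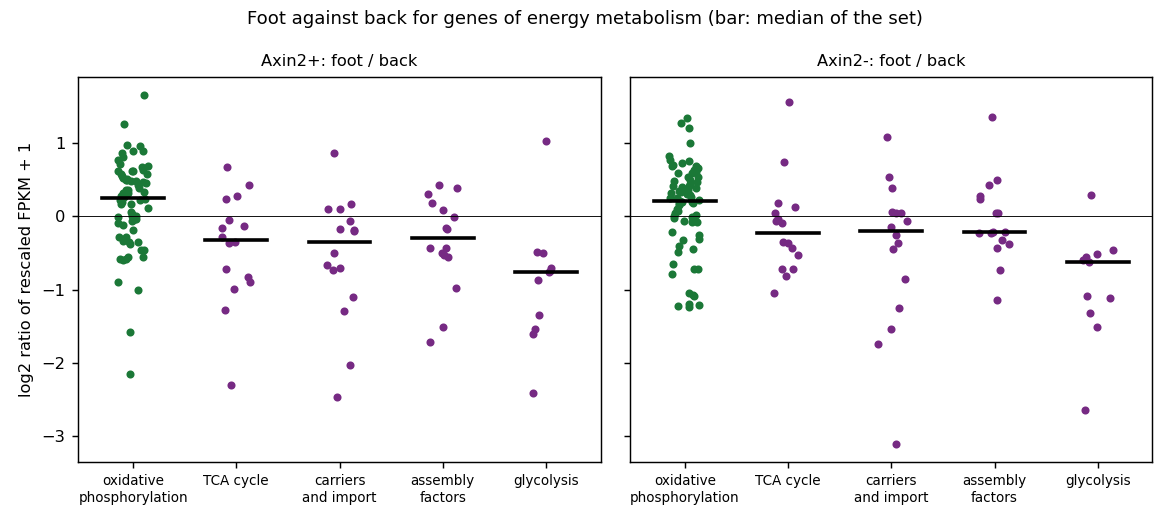
Log2 ratios of foot against back after scaling (y axis) for the subunit genes and 4 other gene lists, positive label at left and negative label at right; points are genes and bars medians. The subunit genes have medians of 0.25 and 0.21 and glycolysis -0.76 and -0.63, with the other lists between. As deposited the glycolysis median with the negative label was 0.11 and that of the subunit genes 0.95, so the order of those 2 lists is the same. The lists were not matched for transcript length.

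Mitochondrially encoded subunits could not be set beside the nuclear ones. In the foot tables mitochondrial genes were spread over 28 and 12 loci, and in each back table they stood in 2 loci that join many genes, so no gene had a row of its own in all 4 tables.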

How the data were processed

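Messenger RNA of 4 sorted dermal samples, 1 per group, was analysed from gene tables. The authors deposited FPKM with lower and upper bounds and a status flag per gene; TopHat, Cufflinks and mm9 are named per the submitters' processing notes, and the sources used here do not give versions, settings, annotation or read counts. Depth per library is therefore unknown, and the precision is known only from the bounds, whose median half-width over the subunit genes was 13.3%, 7.95%, 6.31% and 7.20% of the FPKM (foot positive, foot negative, back positive, back negative). The confidence level of the bounds is not stated.

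Rows with the same symbol were summed and joined loci kept as 1 unit. For 1 library, 22 symbols altered to dates were restored by gene ID. Unnamed rows, 4644 to 10608 a table, were left out. Libraries were divided by median-ratio factors of 1.10, 1.32, 0.893 and 0.786, from 4834 units of at least 5 FPKM in every library, with a pseudocount of 1. The log2 scale with a pseudocount understates changes of low genes. A unit was compared in a pair when its status was OK in all 4 libraries, the larger FPKM was at least 5 and neither value was exactly 0. Bounds are called apart when the rescaled bounds, widened to hold the value, do not overlap. The foot minus back difference has no such pair of bounds. It is called apart when its size exceeds its half-width, which combines those of all 4 libraries, so its counts are not comparable with the others.

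No test across replicates exists with 1 library a group, so no p-values are given. Per complex, the text names the member with the highest mean FPKM, the 2 with the widest span, every member at least 2-fold different with bounds apart, every member listed at 0 and the isoform sets, and from each other list up to 4 most changed and the 2 highest; other named members illustrate a role or a direction and were picked with their values known. The members and lists were chosen with earlier results of these data known. Transcript lengths come from GENCODE vM21 and promoters from RefSeq, both of GRCm38; no coordinates were carried between builds. The script was tested on simulated data. Python 3.11.15, numpy 2.4.6, pandas 2.3.3 and matplotlib 3.10.9 were used. Alternatives were other scalings, pseudocounts, floors, treatments of 0 and bounds, and member sets.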

Additional observations from a re-analysis of the deposited data

Results flagged for a closer look

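For 4 members the labelled positive against negative ratio had opposite signs in foot and back, with bounds apart in both skins. These are 5.63% of the 71 members comparable in both skins, against 6.67% of 5998 units. The difference between the skins was not tested across replicates, and the signs follow the foot labels, which the Axin2 level does not bear out. In foot and back respectively, Uqcrb stood at 0.88 ± 0.17 and -1.0 ± 0.12, a difference of 1.88 ± 0.21. Ndufv3, an accessory subunit of complex I, stood at 0.59 ± 0.28 and -0.36 ± 0.19, a difference of 0.95 ± 0.34. Ndufc1 stood at -0.72 ± 0.36 and 0.36 ± 0.20, a difference of -1.08 ± 0.41. Atp5h stood at -0.68 ± 0.29 and 0.093 ± 0.363, a difference of -0.78 ± 0.46; its back ratio is smaller than its half-width and its back negative FPKM lies outside its bounds. In the FPKM as deposited all 4 genes have the same signs.

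Subunit genes in loci that the tables join with neighbours were outside the comparisons, and their values cannot be split between the genes. The locus of Ndufb2 with Adck2 stood at 230.1, 265, 130.3 and 107 FPKM in the order foot positive, foot negative, back positive, back negative. The locus of Atp5o with Donson stood at 297, 482, 292 and 271 FPKM. The locus of Ndufb8 with Sec31b and Gm20538 stood at 409, 611, 349 and 248 FPKM. Sdha with Lrrc14b stood at 24.4 FPKM in the foot library labelled negative.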

How the results depend on the processing

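No paired analysis was possible because each group holds 1 library. No member at least 2-fold different changed sign under any alternative run. The FPKM as deposited moved most counts. Medians became 0.17 (back sort), 0.54 and 0.95 (foot against back, positive and negative label) and -0.42 (difference of the sorts). In the foot sort, 2 members were then 2-fold higher and 4 lower, with bounds apart for 5 and 26, and in the back sort bounds were apart for 26 higher. Foot against back had 9 members 2-fold higher and bounds apart for 39 and 7 with the positive label, and 32 and 0, and 59 and 6, with the negative label. The difference was 2-fold or more in 3 and 11, and exceeded its half-width in 8 and 41. Upper-quartile factors gave 5 members 2-fold higher in foot against back with the positive label. A floor of 20 FPKM gave 2 higher in the foot sort and 1 in that site comparison, as did leaving out Atp5l2, Atp5s and Atp5sl (2 and 1). Factors from units of at most 1000 bases gave 4 lower there; these last 2 settings were chosen after seeing the data, as was keeping units at 0, which moved none of these counts. Without the 28 members outside their own bounds, fewer members remain: 1 lower in the foot sort, 9 higher with bounds apart in the back sort, 1 higher, 0 lower and 7 lower with bounds apart with the positive label, and 0 higher, 3 lower and 9 lower with bounds apart with the negative label. For the difference 2 were lower, and 9 were lower by more than the half-width. Against units of at least 5 FPKM the median percentiles were 90.1, 87.3 and 88.3 in the foot positive, back positive and back negative libraries. The pseudocount of 0.1 and the floor of 1 FPKM changed no count by over 1.5 times and no median by more than the members' median half-width.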
